A study of Homo sapiens with 6 samples.

Results

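The iron-sulfur cluster assembly genes described here are ISCU, NFS1, GLRX5, LYRM4, ISCA1, ISCA2, HSCB and FDX2. These 8 genes were chosen by symbol, not by a rule on their values, from the 62754 genes of the deposited tables. Earlier results of these data were known when they were chosen. RNA was profiled in HUDEP-2 cells, a human erythroid progenitor line that was immortalised with doxycycline-driven viral oncogenes and makes mainly adult hemoglobin. The medium of both groups held doxycycline (1 µg per ml), dexamethasone (1e-06 M), erythropoietin (3 units per ml) and stem cell factor (50 ng per ml). One group of 3 libraries (genotype label MEN1 knockdown) received a lentiviral shRNA against MEN1, the gene of the chromatin cofactor menin, and the other group of 3 (genotype label WT) received a control shRNA. Infected cells of both groups were selected in puromycin (2 µg per ml), which began at 24 h and lasted 48 h, up to the harvest at 72 h. The study is on 1 cell line and 1 hairpin against MEN1, so that effects of menin loss cannot be told apart from other effects of the hairpin.

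Iron-sulfur clusters are cofactors of iron and sulfide that proteins use to carry electrons, to catalyse reactions and to sense iron. In mitochondria the cysteine desulfurase NFS1, held by its partner LYRM4 (also called ISD11), takes sulfur from cysteine, and the cluster is built on the scaffold ISCU with electrons from the ferredoxin FDX2. The co-chaperone HSCB and the chaperone HSPA9 then release the cluster from ISCU to the glutaredoxin GLRX5, from which ISCA1 and ISCA2, with IBA57, make the larger cubane clusters. Erythroid cells depend on this pathway because the last enzyme of heme synthesis, FECH, holds a cluster, and because ACO1 works as an iron-sensing RNA-binding protein when it lacks its cluster. Inherited defects of GLRX5 and HSCB cause sideroblastic anemia, and a splicing defect of ISCU causes a myopathy.

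Values are deposited TPM (a level corrected for gene length and scaled to the same total in each library). Depth, inferred from the ratio of coverage to FPKM, was 5.56 to 7.98 gigabases aligned under the MEN1 hairpin and 7.00 to 10.8 gigabases in the controls. MEN1 itself had a TPM of 6.29 to 6.88 with its shRNA and 37.1 to 41.2 in the controls. Pearson correlations between libraries, taken over genes, which are not independent replicates, were 0.985 to 0.989 within a group and 0.934 to 0.954 between groups. Erythroid marker genes were present in every library. Of the 16 markers of other blood cells, 13 stayed below 1 TPM in every library, and PF4, PPBP, MS4A1 and CLC were listed at 0 throughout. The rest were present. TPSAB1 was at 448 TPM under the MEN1 hairpin and 644 in the controls, and ITGA2B at 18.6 and 33.8. CD33 reached 1.42 TPM in control replicate 1. The labels call the replicates biological but do not say whether they were separate cultures, so p-values measure only the spread between these libraries.

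Of the 8 assembly genes, NFS1, GLRX5 and ISCA2 fell under the MEN1 hairpin, and 0 rose. A gene was called when its adjusted p was 0.05 or less in limma, fitted on log2(TPM + 1) over the 14294 genes that reached 1 TPM in 3 or more libraries. By that rule 31.5% of all tested genes were lower and 22.1% higher, so that 37.5% of the assembly genes lower is near the background. The excess of lower genes depends on the scaling, at 4499 lower and 3158 higher here and 3838 lower and 3758 higher with median-of-ratios scaling. Positions given for each gene are those of the deposited tables, on hg38, and values cover the exons of the whole gene, not single transcripts. All 8 genes passed the filter on low values, in every library. Log2 fold changes ran from -1.04 for ISCA2 to 0.22 for ISCU, with a median of -0.22 against -0.07 over all genes tested. The summed TPM of the 8 genes in replicates 1, 2 and 3 came to 458, 451 and 467 under the MEN1 hairpin and to 558, 568 and 556 in the controls, and GLRX5 was its largest term. In bulk RNA, fewer cells that express a gene and less RNA per cell cannot be told apart.

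**Figure D1:**
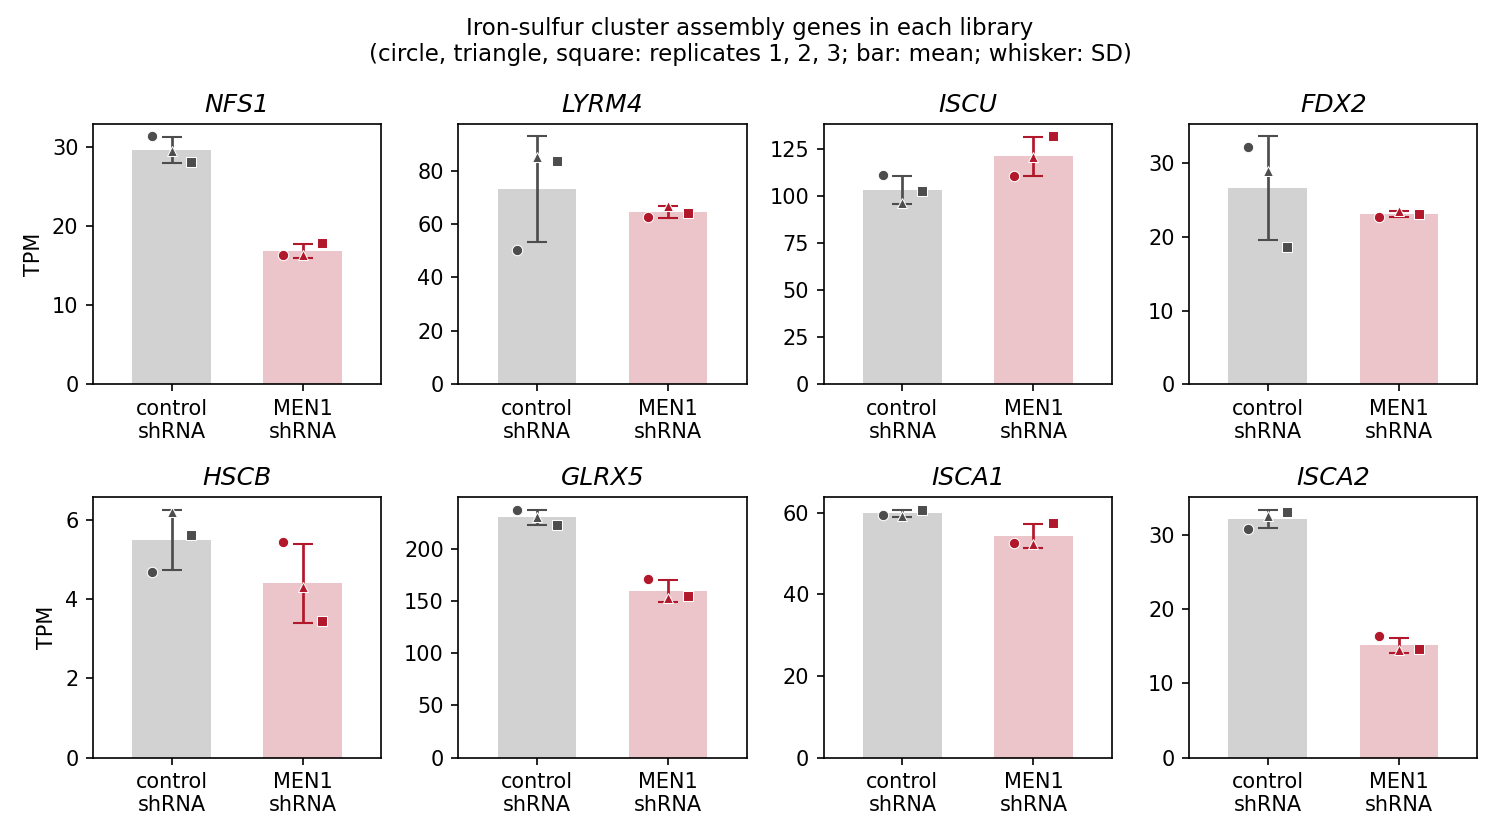
TPM (vertical axis, from 0, scaled for each gene) of the 8 assembly genes in the control shRNA (grey) and MEN1 shRNA (red) libraries; points are replicates, bars are means and whiskers are SD (n = 3). NFS1, GLRX5 and ISCA2 show separated groups with a small spread, while LYRM4 and FDX2 each have 1 control library far from the other two.

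The desulfurase NFS1 (ENSG00000244005, chromosome 20, 35668052 to 35699355, minus strand) read 16.4, 16.3 and 17.9 TPM in replicates 1, 2 and 3 under the MEN1 hairpin, against 31.4, 29.5 and 28.1 TPM in the controls. Every MEN1 shRNA library lay below every control. Mean TPM was 16.8 ± 0.876 against 29.7 ± 1.64 (SD, n = 3), which leaves 56.8% of the control. The log2 fold change of NFS1 was -0.78 (SE 0.0777, adjusted p 0.000155 in limma). Its 5′ end overlaps that of ROMO1, on the opposite strand, by 84 bases. ROMO1, which encodes a small inner-membrane protein, was at 109 ± 11.4 and 108 ± 5.18 TPM. An unnamed gene on the same strand as NFS1, ENSG00000272897, overlaps it by 6493 bases and was listed at 0 in every library.

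LYRM4, the partner that stabilises NFS1 (ENSG00000214113, chromosome 6, 5103629 to 5260950, minus strand), had a TPM of 62.6, 66.7 and 64.2 under the MEN1 hairpin and of 50.4, 85.1 and 83.8 in control replicates 1, 2 and 3. Control replicate 1 lay below the MEN1 shRNA libraries and the other controls above them. LYRM4 had a log2 fold change of -0.14 (95% interval -0.57 to 0.30, adjusted p 0.56 in limma). Without control replicate 1 it was -0.38, with an adjusted p of 0.00391, so that 1 library decides this call. The listed coverage of LYRM4 was low, 3.21 to 8.05 reads per base over the annotated gene model. That is only 0.017 to 0.021 of the coverage that its FPKM and the depth would give, so it need not mean few reads.

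The scaffold ISCU (ENSG00000136003, chromosome 12, 108562582 to 108569368, plus strand) was at 111, 121 and 132 TPM under the MEN1 hairpin and at 111, 96.4 and 103 TPM in the controls. The groups overlapped only through MEN1 shRNA replicate 1 and control replicate 1. ISCU was the single assembly gene with a positive log2 fold change, 0.22 (95% interval 0.03 to 0.42), and its adjusted p of 0.0529 in limma did not pass the threshold. It passed in limma under 5 other settings, among them median-of-ratios scaling (log2 fold change 0.31, adjusted p 0.0198). It also passed without MEN1 shRNA replicate 1 (0.29, adjusted p 0.022) and without control replicate 1 (0.28, adjusted p 0.0406).

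FDX2 encodes the mitochondrial ferredoxin that gives electrons to the scaffold complex (ENSG00000267673, chromosome 19, 10309916 to 10316015, minus strand). Its TPM was 22.7, 23.5 and 23.2 under the MEN1 hairpin and 32.2, 28.9 and 18.7 in control replicates 1, 2 and 3, so that the third control lay below the MEN1 shRNA libraries and the others above. The log2 fold change was -0.16 (95% interval -0.58 to 0.26, adjusted p 0.488 in limma). An unnamed gene on the same strand, ENSG00000167807, overlaps FDX2 by 6094 bases and was listed at 0 in every library. Another on that strand, ENSG00000267303 (10315471 to 10320678), overlaps the 5′ part of FDX2 by 545 bases. That row was listed at 0 in all 3 MEN1 shRNA libraries and in control replicate 1, and had 29.03 and 36.5 TPM in the other two controls.

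The sum of FDX2 and ENSG00000267303, formed after the values were seen, was 22.7, 23.5 and 23.2 TPM under the MEN1 hairpin. It was 32.2, 58.0 and 55.2 TPM in the controls. With the sum in place of FDX2 the groups did not overlap, and limma gave a log2 fold change of -0.99 (SE 0.202; adjusted p 0.00448). Leaving out control replicate 3 also brought FDX2 alone past the threshold (log2 fold change -0.38, adjusted p 0.0113). FDX2 is thus a gene whose call rests on 1 library and on the treatment of an overlapping row.

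HSCB, the co-chaperone that hands the cluster on from ISCU, had the lowest mean TPM of the 8 (ENSG00000100209, chromosome 22, 28742039 to 28757515, plus strand). Its TPM was 5.43, 4.31 and 3.45 under the MEN1 hairpin and 4.68, 6.18 and 5.61 in the controls, and the groups overlapped. The log2 fold change was -0.28 (95% interval -0.66 to 0.11, adjusted p 0.198 in limma). Coverage was low, at 2.92 to 9.54 reads per base, which is 0.316 to 0.373 of the coverage that FPKM and depth would give. The first 384 bases of HSCB overlap the start of CHEK2, a checkpoint kinase gene on the opposite strand, which fell from 41.0 ± 1.67 to 19.6 ± 3.44 TPM. Whether counting used strand is not given in the sources used here, so reads of such opposite-strand pairs may be shared.

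GLRX5, which carries the newly built cluster to later steps, had the highest mean TPM of the assembly genes (ENSG00000182512, chromosome 14, 95533503 to 95544724, plus strand). It was at 171, 152 and 154 TPM under the MEN1 hairpin and at 237, 230 and 223 TPM in the controls. All 3 MEN1 shRNA libraries lay below all 3 controls, with means of 159 ± 10.4 and 230.2 ± 7.19 TPM. The log2 fold change of GLRX5 was -0.53 (SE 0.0632, adjusted p 0.000343 in limma). The opposite-strand gene SNHG10 overlaps the GLRX5 row by 1387 bases, at 4.77 ± 0.0493 and 7.06 ± 0.968 TPM, and the small RNA gene SCARNA13 overlaps it by 127 bases, at no more than 2.46 TPM. The 3 pseudogenes named for GLRX5 reached at most 0.485 TPM.

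ISCA2 and ISCA1 are partner proteins of the last steps. ISCA2 (ENSG00000165898, chromosome 14, 74493756 to 74497106, plus strand) was at 16.3, 14.5 and 14.6 TPM under the MEN1 hairpin and at 30.8, 32.5 and 33.1 TPM in the controls. The groups were well apart, and the MEN1 hairpin left 47.2% of the control mean. The log2 fold change of ISCA2 was -1.04 (SE 0.0778, adjusted p 5.4e-05 in limma), the largest in size of the 8, and it lay at the 6.50 percentile of all genes tested. ISCA2 shares 422 bases with the start of NPC2, a cholesterol carrier gene on the opposite strand, which rose from 217 ± 10.6 to 330 ± 13.8 TPM, a log2 fold change of 0.60 (limma adjusted p 0.00016). The part of reads shared with NPC2 in the ISCA2 difference was not tested. The pseudogene named for ISCA2, ISCA2P1, reached at most 2.25 TPM. Its means were 1.29 ± 0.221 TPM under the MEN1 hairpin and 1.25 ± 0.867 in the controls.

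ISCA1 (ENSG00000135070, chromosome 9, 86264546 to 86283102, minus strand) was at 52.7, 52.4 and 57.6 TPM under the MEN1 hairpin and at 59.5, 59.1 and 60.7 TPM in the controls. The MEN1 shRNA libraries lay below the controls by a small margin. Its log2 fold change of -0.14 (95% interval -0.29 to 0.00423, adjusted p 0.0931 in limma) did not pass the threshold. No overlap in the downward direction was found in 4 of the 8 assembly genes (ISCA1, ISCA2, NFS1 and GLRX5), against 35.9% of all tested genes; none was higher without overlap, against 25.8%, and 61.8% of tested genes did not overlap in one or the other direction. The 5 pseudogenes named for ISCA1 reached at most 1.64 TPM each.

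The promoters of ISCA2, ISCA1 and ISCU are shown because these genes act in neighbouring steps and 1 of them fell. The sequences are from RefSeq (GRCh38.p14, all 8 genes matched) and lie within the 250 bases before the start annotated there. That start can lie inside the gene position given above, as it does for ISCA1 and GLRX5. Only the longest stretch outside GENCODE v29 exons of any gene is printed, which leaves none for NFS1 and GLRX5. Capitals mark matches, on either strand, to the CCAAT box (CCAAT), the GC box (GGGCGG) and the palindromic NRF1 motif.
ISCA2 (chr14:74493609-74493719, plus strand): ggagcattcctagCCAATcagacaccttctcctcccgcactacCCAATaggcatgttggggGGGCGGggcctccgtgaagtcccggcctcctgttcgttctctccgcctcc
ISCA1 (chr9:86282539-86282788, minus strand): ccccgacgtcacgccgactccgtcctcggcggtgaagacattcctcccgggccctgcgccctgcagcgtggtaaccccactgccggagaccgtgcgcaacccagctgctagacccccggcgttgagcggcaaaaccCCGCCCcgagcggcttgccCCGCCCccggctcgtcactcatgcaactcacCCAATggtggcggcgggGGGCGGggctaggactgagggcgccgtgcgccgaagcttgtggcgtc
ISCU (chr12:108562346-108562581, plus strand): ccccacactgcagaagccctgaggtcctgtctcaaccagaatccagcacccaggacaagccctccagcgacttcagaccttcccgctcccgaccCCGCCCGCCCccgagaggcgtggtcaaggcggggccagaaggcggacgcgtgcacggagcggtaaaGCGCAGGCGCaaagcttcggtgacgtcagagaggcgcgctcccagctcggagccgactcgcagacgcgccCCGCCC

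In the printed stretches ISCA2 holds 2 CCAAT boxes, ISCA1 holds 1 and ISCU holds none. Over the whole 250 bases, GLRX5 has 5 CCAAT matches, NFS1 has none, and HSCB has 3 but none in its RefSeq entry 3. In all, 4 of the 8 genes have at least 1, against 33.0% of the 27305 promoters in the RefSeq table. All 8 have a GC box, against 42.3% of promoters. The GC content of member promoters ran from 54% (FDX2) to 72% (ISCA1), beside a median of 58% over promoters. Its effect on the motif counts was not tested. The ETS motif CCGGAAG was found only in NFS1 (8.82% of promoters), the NRF1 motif only in ISCU (5.53%) and the GATA core GATAA in none (21.0%). Overlapping matches were counted separately. Of the genes that fell, GLRX5 and ISCA2 carry CCAAT boxes and NFS1 does not, and ISCA1 and HSCB, which were not called, carry them as well.

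Ratios of TPM between genes of neighbouring steps were formed within each library, where they do not depend on the scaling of the library. Their size does depend on the measure. In coverage scaled to depth, control means were 0.628 for LYRM4 and 4.83 for NFS1, and 7.04 for ISCA1 and 10.5 for ISCA2. ISCU stood at 6.77, 7.42 and 7.38 times NFS1 under the MEN1 hairpin and at 3.55, 3.26 and 3.66 times NFS1 in the controls, a 2.06-fold higher ratio. ISCA1 stood at 3.23, 3.60 and 3.94 times ISCA2 against 1.94, 1.82 and 1.83 times in the controls, 1.92-fold higher. GLRX5 to ISCU was lower, at 1.55, 1.26 and 1.17 against 2.13, 2.39 and 2.17, while LYRM4 to NFS1 was at 3.83, 4.09 and 3.59 against 1.61, 2.88 and 2.98. The log2 difference of that last ratio was 0.68, and 0.39 without control replicate 1. For each of the 4 ratios the groups did not overlap, with a 2-sided exact permutation p of 0.1 and a Benjamini-Hochberg value of 0.1. That is the smallest p that 3 against 3 libraries can give. Single genes did not overlap in 61.8% of those tested, and no such share was formed for ratios of other genes. Each ratio holds NFS1, GLRX5 or ISCA2, whose groups did not overlap by themselves. The ratios are thus not a result apart from those calls.

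**Figure D2:**
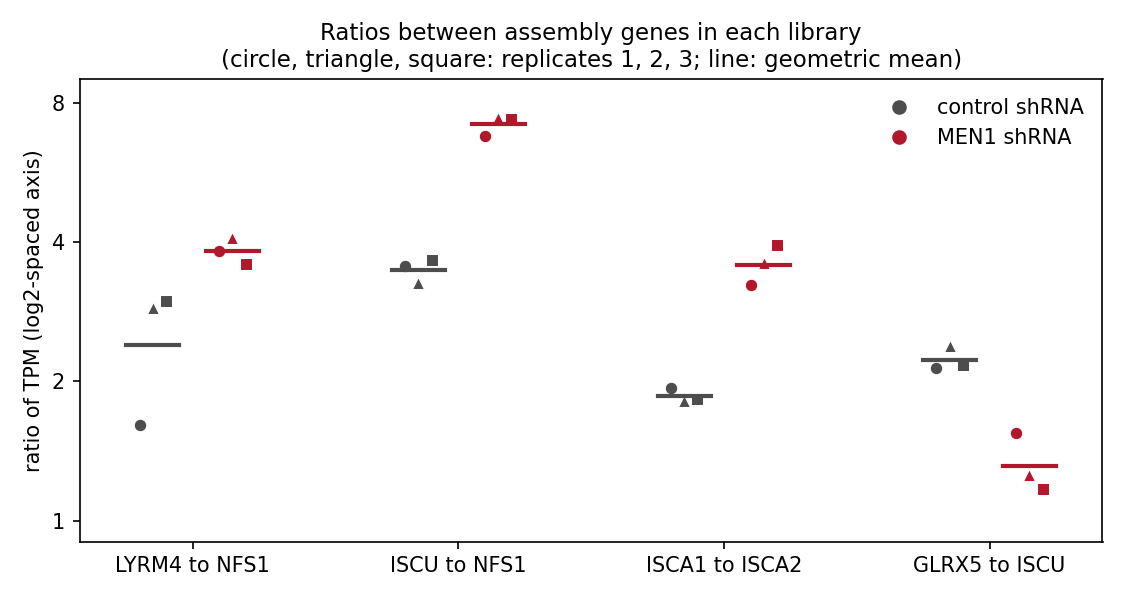
Ratio of TPM (vertical axis, log2-spaced) for 4 gene pairs in the control shRNA (grey) and MEN1 shRNA (red) libraries; points are replicates and lines are geometric means. The ISCU to NFS1 and ISCA1 to ISCA2 ratios lie higher in every MEN1 shRNA library, and GLRX5 to ISCU lies lower.

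By level, the controls ran from GLRX5 (mean 230.2 TPM) through ISCU (104), LYRM4 (73.1), ISCA1 (59.8), ISCA2 (32.1), NFS1 (29.7) and FDX2 (26.6) to HSCB (5.49). Among neighbours in that order, LYRM4 and ISCA1 overlapped between libraries, as did ISCA2 and NFS1, and NFS1 and FDX2. With the MEN1 shRNA the order was GLRX5 (159), ISCU (121), LYRM4 (64.5), ISCA1 (54.2), FDX2 (23.2), NFS1 (16.8), ISCA2 (15.2) and HSCB (4.40). By TPM, ISCA2 thus went from place 5 to place 7, and its highest MEN1 shRNA library (16.3 TPM) lay just under the lowest NFS1 value. The order between genes depends on the measure. In coverage scaled to depth, control means ran from GLRX5 (11.7) through ISCU (11.4), ISCA2 (10.5), FDX2 (7.29), ISCA1 (7.04), NFS1 (4.83) and HSCB (0.858) to LYRM4 (0.628).

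For each member, the 2 genes most like it in log2(TPM + 1) over the 6 libraries were taken from 9899 genes with a mean TPM of 5 or more. For a gene that differs between the groups this likeness is mostly the group difference itself. ISCA2 was most like IRAK1 (Pearson r 0.9996) and VPS37B (0.9995), and GLRX5 was most like DLAT (0.9998), a pyruvate dehydrogenase subunit, and HMGA1 (0.9997), a chromatin architecture factor. NFS1 was closest to C7orf50 and CYTH1 (both 0.997), and ISCU to ZNF622 (0.995) and INTS7 (0.981). ISCA1 was closest to ZFP69 and MTDH (both 0.993), LYRM4 to ACTR1A (0.992) and CPSF1 (0.991), HSCB to WASF1 and EXOSC10 (both 0.987), and FDX2 to LMO2 (0.966) and RPL13 (0.964). Without control replicate 1 the log2 fold change of ACTR1A moved from -0.11 to -0.33. Without control replicate 3 that of LMO2 moved from -0.25 to -0.84 and that of RPL13 from -0.06 to -0.31. CPSF1 stayed between -0.079 and 0.0086 with any 1 library left out. These genes were picked for likeness to LYRM4 or FDX2 over the same 6 libraries. Shifts shared with LYRM4 and FDX2 thus follow from the choice and say nothing more about those libraries.

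The other mitochondrial assembly genes, a list of 15, had 5 lower, 3 higher and 7 not past the threshold, with a median log2 fold change of 0.01. These counts are near the shares over all genes tested, 31.5% lower and 22.1% higher. The counts of the lists below are to be read beside the same shares. HSPA9, the chaperone that works with HSCB, fell (log2 fold change -0.29), as did its nucleotide exchange factor GRPEL1 (-0.58). BOLA3 and NUBPL, which act in late cluster delivery, fell too (-0.60 and -0.79), though NUBPL was at -0.06 in log2(scaled coverage + 1), where its values are small beside the 1 that is added. FDXR, the reductase that feeds FDX2, had a log2 fold change of 0.28 and an adjusted p of 0.0511 in limma, just outside the threshold, and passed in 8 alternatives, among them quantile normalization (0.41, adjusted p 0.0128).

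IBA57, the partner of ISCA1 and ISCA2, rose from 7.02 ± 0.553 to 8.99 ± 0.0496 TPM, a log2 fold change of 0.32 (limma adjusted p 0.0239), and did not pass without MEN1 shRNA replicate 2 (adjusted p 0.0631) or replicate 3 (0.0621), or without control replicate 1 (0.0644) or replicate 3 (0.0828). The related ferredoxin FDX1 rose by a log2 fold change of 0.42 (adjusted p 0.0214 in limma), from 6.18 to 8.68 TPM. The call of FDX1 was likewise lost without MEN1 shRNA replicate 2 (adjusted p 0.0718) or replicate 3 (0.0716), or without control replicate 1 (0.0666) or replicate 3 (0.0507). NFU1 (-0.10, adjusted p 0.41) did not pass the threshold. The largest rise was that of SLC25A37 (mitoferrin), which brings iron into erythroid mitochondria, at 1204, 1274 and 1300 TPM under the MEN1 hairpin and 631, 643 and 298 in the controls (log2 fold change 1.35, adjusted p 0.00413). Its control replicate 3 was under the other controls, and without it the log2 fold change was 0.98.

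**Figure D3:**
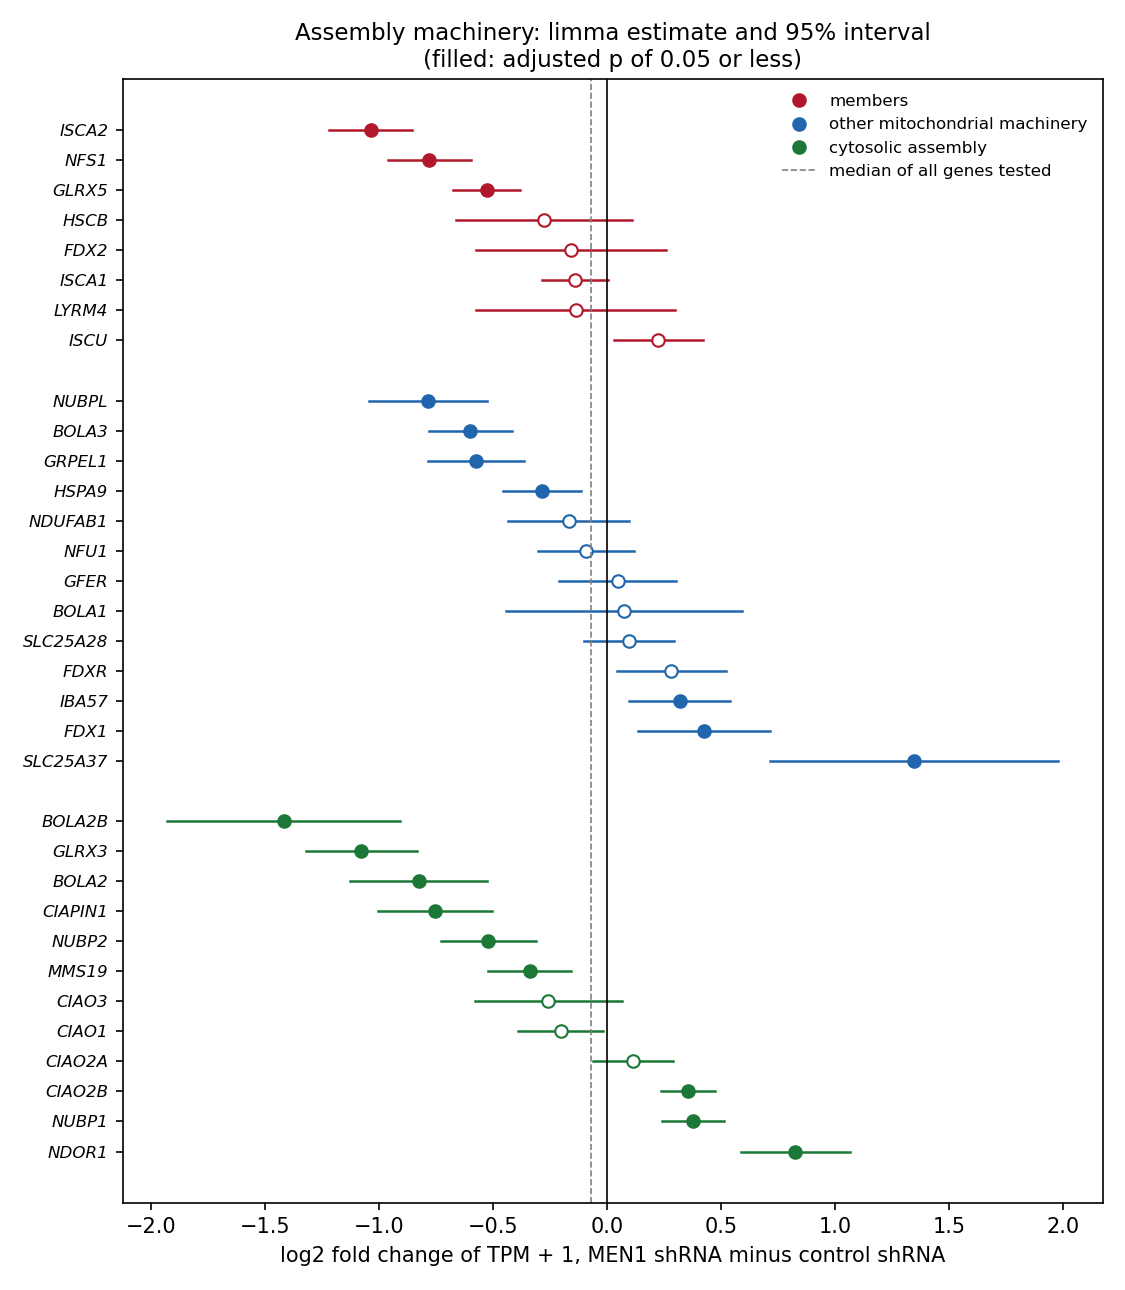
Log2 fold change of TPM + 1 (horizontal axis, MEN1 shRNA minus control shRNA) with its 95% interval in limma for the 8 members, 13 of the 15 other mitochondrial assembly genes and 12 cytosolic assembly genes; filled points have an adjusted p of 0.05 or less. ISCA2, NFS1 and GLRX5 lie at -1.04, -0.78 and -0.53, and SLC25A37 at 1.35.

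Cytosolic assembly, which builds clusters for cytosolic and nuclear proteins from a sulfur compound exported by mitochondria, had 12 genes tested, 6 lower and 3 higher (median -0.30). Lower were the electron carrier CIAPIN1 (-0.76), the glutaredoxin GLRX3 (-1.08) and its partners BOLA2 (-0.83) and BOLA2B (-1.42), the scaffold NUBP2 (-0.52) and MMS19 (-0.34). BOLA2 and BOLA2B are near-identical copies, so the division of reads between them is uncertain. Higher were the reductase NDOR1 (0.83), the scaffold NUBP1 (0.38) and the targeting factor CIAO2B (0.35). NUBP1 and NUBP2 form 1 scaffold complex and were thus called in opposite directions, as were the electron transfer partners NDOR1 and CIAPIN1.

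Genes of mitochondrial proteins that hold clusters were lower in 9 of 15 tested and higher in 1 (median -0.47). The one that rose was FECH, from 125 ± 15.6 to 207 ± 18.2 TPM, a log2 fold change of 0.73 (limma adjusted p 0.000727). Among those that fell, lipoate synthase LIAS had a log2 fold change of -0.85, CISD1 of -1.08 and the complex I subunit NDUFV2 of -0.47. In the cytosol and nucleus, 13 of 23 tested were lower and 4 higher (median -0.25). DPH2, of diphthamide synthesis (-1.53), and the DNA glycosylase NTHL1 (-1.27) were among those that fell. The antiviral enzyme RSAD2 (1.35), the DNA polymerase POLE (0.26) and the tRNA-modifying ELP3 (0.19) rose. The ELP3 call (adjusted p 0.0281 in limma) was lost without the trend (0.0634) and when any library other than MEN1 shRNA replicate 1 was left out (0.054 to 0.0914). In log2(scaled coverage + 1) the values were -0.47 for LIAS and -0.84 for NTHL1, still past the threshold.

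ACO1, which is the RNA-binding IRP1 when it lacks a cluster, fell from 21.9 ± 2.80 to 9.15 ± 1.34 TPM, a log2 fold change of -1.18 (limma adjusted p 0.000231). IREB2, the gene of the second iron regulatory protein, which has no cluster, rose from 42.6 ± 1.22 to 53.6 ± 0.857 TPM (0.33, adjusted p 0.00229). The 2 regulators and the 7 genes listed here as their mRNA targets gave 6 higher and 3 lower of 9. Values are per gene, so they do not show whether the transcripts present carry the binding sites. ALAS2, the first enzyme of erythroid heme synthesis (1.03), EPAS1 (1.55) and the iron importer SLC11A2 (1.37) rose, and the iron exporter SLC40A1 fell by 2.21 on the log2 scale. FTL, of the ferritin light chain, had a log2 fold change of -0.18 (adjusted p 0.0279 in limma) that turned to 0.04 with quantile normalization (adjusted p 0.506). Its call was also lost in 11 other alternatives, among them median-of-ratios scaling (-0.09, adjusted p 0.306) and leaving out MEN1 shRNA replicate 2 (0.055) or 3 (0.0675) or control replicate 1 (0.0948) or 2 (0.0691). EPAS1 was at 0.89 in log2(scaled coverage + 1).

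**Figure D4:**
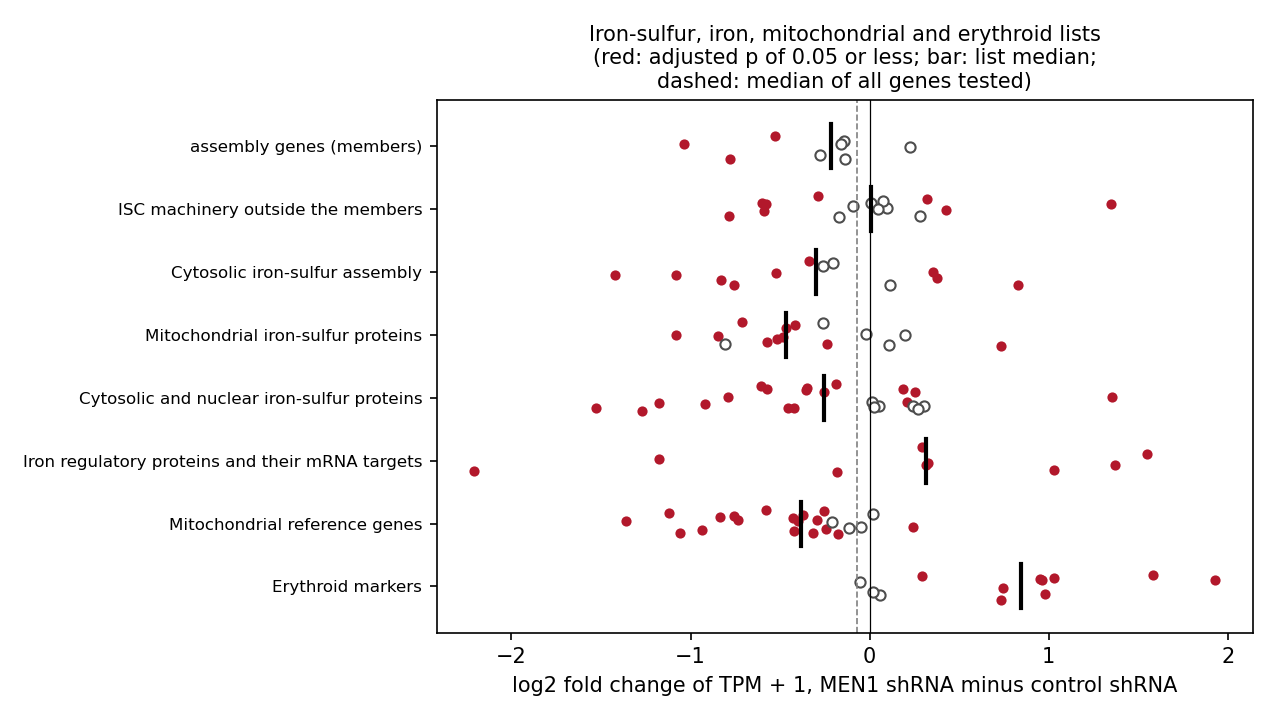
Log2 fold change of TPM + 1 (horizontal axis, MEN1 shRNA minus control shRNA) of each tested gene in 8 lists; red points have an adjusted p of 0.05 or less in limma, bars are list medians and the dashed line is the median of all genes tested (-0.07). Mitochondrial reference genes (median -0.39) lie mostly left of 0 and erythroid markers (0.85) mostly right.

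Other mitochondrial and erythroid genes moved in the same libraries. Of 22 mitochondrial reference genes (import channels, porins, chaperones and others without a role in cluster assembly), 17 were lower and 1, IMMT, was higher (0.24), with a median of -0.39. Cytochrome c (CYCS, -1.12), the import pore TOMM40 (-1.06) and prohibitin PHB1 (-0.83) fell. Erythroid markers were higher in 9 of 12 and lower in 0, with a summed TPM of 98009 to 110149 under the MEN1 hairpin and 56503 to 62599 in the controls. The markers of other blood cells summed to 440 to 526 and 614 to 783 TPM, nearly all of it the tryptase gene TPSAB1 (448 ± 47.4 and 644 ± 90.7 TPM). The part that mitochondrial content, erythroid stage and these other transcripts have in the fall of NFS1, GLRX5 and ISCA2 was not tested.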

How the data were processed

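Per the labels' protocols, poly(A) RNA was made into directional libraries. FastQC, Trimmomatic, STAR 2.7.1a, Picard 2.20.4, StringTie 2.0.4 and hg38 are named, with no role, in the submitters' processing notes. Each of the 6 deposited tables gives coverage (mean reads per base, an unscaled signal), FPKM and TPM per gene, per the file headers, all made by the authors. In control replicate 2, 1 TPM and 2 coverage values just below 0 were set to 0. Because TPM has a fixed total, a rise of abundant transcripts lowers all other values.

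Log2(TPM + 1), which understates changes of low genes, was fitted with limma 3.58.1 in R 4.3.3 (eBayes with trend, MEN1 shRNA minus control, Benjamini-Hochberg adjustment over 14294 genes). Adjusted p-values are from this fit unless another is named. The fit was tested on simulated data. Counts were not used here, so no count model was run. Python 3.11.15, pandas 2.3.3 and SciPy 1.17.1 did the rest.

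Members, lists and tests were chosen with earlier results of these data known. Named were the 8 members, MEN1, 9 pathway genes, up to 3 genes per direction from 6 lists by adjusted p, the 2 most similar genes per member and overlapping rows. GRPEL1, BOLA2, NUBP2, MMS19, TPSAB1, ITGA2B and CD33 lie outside this rule and were chosen after their values were seen. Some further pathway genes are not reported here, though list counts include them. Alternatives were 2 filters, a pseudocount of 0.1, FPKM, 3 scalings, no trend, a replicate block, a threshold of 0.01 and each library left out.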

Additional observations from a re-analysis of the deposited data

How the results depend on the processing

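Coverage scaled to depth and the FDX2 sum were chosen after seeing the data. The calls of NFS1 (-0.82 to -0.65), GLRX5 (-0.58 to -0.44) and ISCA2 (-1.09 to -0.92) held in all alternatives. Of 128 comparisons of member log2 fold changes, 118 were unchanged in direction and side of the threshold, and 10 passed newly. ISCU passed at a mean TPM of 5 or more (0.22), with FPKM (0.25), median-of-ratios scaling (0.31), rescaling without globin and mitochondrial genes (0.29) and quantile normalization (0.25), and 1 member was then higher in place of 0. FDX2 passed when summed with the overlapping row (-0.99). With 1 library left out at a time, log2 fold changes were 0.16 to 0.29 for ISCU, -0.38 to -0.011 for LYRM4, -0.38 to -0.0085 for FDX2, 3 to 5 members past the threshold, and 0 to 1 of them higher. ISCA1 and HSCB passed under none. All 16 MEN1, 51 whole-table and 96 list comparisons were unchanged, or within 1.5 times for counts. The ratios kept their direction in 36 of 36, but none could pass a threshold of 0.05, and LYRM4 to NFS1 ran from 0.39 to 0.86.

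The causes of the ISCU changes were not tested. Deviations from the group means correlated at 0.017, -0.027 and -0.012 between libraries of the same replicate number, so no shared shift was seen. These values cannot show whether libraries of the same number were handled together, and the labels do not say so. With the replicate block 7012 genes passed in place of 7657, and the member calls did not change (ISCU 0.22, NFS1 -0.78, GLRX5 -0.53, ISCA2 -1.04), but those of IBA57 (adjusted p 0.0605), ELP3 (0.0554) and FTL (0.0839) were lost.

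Among other named genes, mostly far from the threshold, signs turned for FTL with quantile normalization (0.041), CPSF1 with FPKM (0.0094), median-of-ratios scaling (0.065) and rescaling (0.044), EXOSC10 with median-of-ratios scaling (0.0085), and RPL13 with median-of-ratios scaling (0.028) and rescaling (0.0069). With 1 library left out, ranges crossed 0 for ACTR1A (-0.33 to 0.011), CPSF1 (-0.079 to 0.0086), LMO2 (-0.84 to 0.057), RPL13 (-0.31 to 0.085), ROMO1 (-0.046 to 0.099), ISCA1P1 (-0.41 to 0.053) and ISCA2P1 (-0.082 to 0.39). Listed coverage was lowest for LYRM4 (3.21 to 8.05 reads per base) and HSCB (2.92 to 9.54). For LYRM4 it lay far below the coverage that FPKM and depth would give, and for the other members it lay below by less.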
